A study of Mus musculus with 24 samples.

Results

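The genes described here encode proteins of the synaptic vesicle and of the machinery that fuses it with the nerve terminal's membrane: the synapsins Syn1, Syn2 and Syn3, the vesicle membrane proteins Syp and Sv2b, the calcium sensor Syt1, and the SNARE proteins Snap25, Stx1a, Stx3 and Vamp2. They were chosen by symbol, and all 10 were found among the 46603 annotated genes of the count tables. The samples were mouse retinal organoids (MROs), pieces of retinal tissue grown by the trisection protocol from wildtype mouse embryonic stem cells of the line E14Tg2a. RNA of 24 individual MROs was sequenced, with 6 MROs taken on each of day (D) 20, D22, D25 and D30 of culture. All 24 carried the genotype label Control, with the solvent, water, as their treatment. The sample titles of D22, D25 and D30 hold the word Ctrl and those of D20 do not. Whether D20 was handled differently was not tested, and it could not be told apart from the day. In the study's methods, the trisection protocol also gave MROs the retinoid analog EC23 before D20 and medium with serum. All 24 came from 1 independent experiment, so that the day of culture and the day of harvest cannot be told apart. The p-values therefore measure the spread between organoids of 1 experiment. The MROs derive from a single cell line and have no blood supply and no brain targets, which limits them as a model of the retina.

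At a synapse, synapsins hold vesicles in a reserve cluster, and the vesicle protein Vamp2 zips together with Snap25 and a syntaxin of the cell membrane to drive fusion when the calcium sensor Syt1 is triggered. The retina holds 2 kinds of release site. Amacrine cells form conventional synapses, which contain synapsins and syntaxin 1. Photoreceptors and bipolar cells form ribbon synapses, which release vesicles without pause, are known to lack synapsin 1 and synapsin 2, and use syntaxin 3, encoded by Stx3, in place of syntaxin 1. Synaptophysin, encoded by Syp, is found at both, and SV2B, encoded by Sv2b, is known from ribbon terminals.

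Sequence upstream is shown for Syn1, Sv2b and Syp, the 3 genes with a match to a searched motif before the start. Syn1 was low, whereas Syp and Sv2b were abundant for their length and had risen by D22. The RefSeq promoter table (GRCm38.p6, the build of the count tables) held 7 of the 10 genes, with windows from 250 bases before to 50 bases after a start site. Only the bases before the gene's start are printed, 5′ to 3′ on the gene's strand, and capitals mark matches to the motifs searched.
Syn1, chrX:20921005-20921168, minus strand: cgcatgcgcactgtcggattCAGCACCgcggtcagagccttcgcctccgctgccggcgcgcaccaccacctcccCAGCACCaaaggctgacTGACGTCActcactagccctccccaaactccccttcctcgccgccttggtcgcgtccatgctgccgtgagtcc
Sv2b, chr7:75309263-75309512, minus strand: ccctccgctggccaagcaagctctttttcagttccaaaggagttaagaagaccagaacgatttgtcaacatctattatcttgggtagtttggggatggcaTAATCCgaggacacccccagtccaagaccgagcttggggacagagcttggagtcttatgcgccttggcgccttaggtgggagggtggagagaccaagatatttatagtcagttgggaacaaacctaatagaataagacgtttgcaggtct
Syp, chrX:7638330-7638470, plus strand: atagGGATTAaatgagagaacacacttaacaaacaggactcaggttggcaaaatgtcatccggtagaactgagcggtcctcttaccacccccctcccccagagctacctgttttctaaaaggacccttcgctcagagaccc

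Both strands were searched for 5 strings. CAGCACC and GGACAGC are parts of RE1, the element bound by the repressor of neuronal genes REST, and lie in 7.14% and 6.56% of all 32851 windows of the table. The cyclic AMP response element TGACGTCA lies in 1.79% of them, and the core GGATTA, read by the photoreceptor factors CRX and OTX2, in 7.06%. TGCTGAC, part of the element bound by the rod factor NRL, lies in 4.67%. Of the members' 12 windows, that of Syn1 held CAGCACC at 2 places and TGACGTCA at 1 place, and GGATTA or its reverse complement TAATCC lay in windows of Sv2b, Syp and Stx3. The match in Stx3 lies after its start, 30 to 35 bases downstream. No other match to the 5 strings lay in the members' windows. Syn2 and Stx1a, which were low like Syn1, and Syt1, which was abundant and had risen by D22, thus held none. The matches therefore do not follow level or timing across the members. These are matches of letters, and they show neither binding nor a cause.

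All 10 genes are annotated as protein coding. In the GENCODE vM21 annotation of GRCm38, Syn1 (ENSMUSG00000037217) lies at chrX:20860511-20921004, Syn2 (ENSMUSG00000009394) at chr6:115134902-115282006, and Syn3 (ENSMUSG00000059602) at chr10:86055125-86498896. Syp (ENSMUSG00000031144) lies at chrX:7638471-7653256, Sv2b (ENSMUSG00000053025) at chr7:75114894-75309262, and Syt1 (ENSMUSG00000035864) at chr10:108497650-109010982. Of the SNARE genes, Snap25 (ENSMUSG00000027273) lies at chr2:136713453-136782428, Vamp2 (ENSMUSG00000020894) at chr11:69088490-69092384, Stx1a (ENSMUSG00000007207) at chr5:135023482-135051100 and Stx3 (ENSMUSG00000041488) at chr19:11775118-11819403. Syn3 overlaps Timp3, which lies within it on the opposite strand and shares 1733 exonic bases, 14.11% of Syn3. Timp3 gathered 20593 reads over the 24 MROs and Syn3 3473. The sources used here do not say whether the counting used the strand, so values of Syn3 carry that uncertainty. An antisense gene, Gm14703, shares 16.8% of the exonic bases of Syp, but held 2561 reads against 212897 for Syp.

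Each MRO gave between 13634846 and 19477108 reads on features, and 3 reads correspond to between 0.154 and 0.22 CPM, the count scaled to a library of fixed size. Levels are given as normalized CPM, which is CPM after the library sizes were scaled by the trimmed mean of M values. The quasi-likelihood test of edgeR was applied to changes between timepoints in a joint fit of the 24 MROs, with Benjamini-Hochberg adjustment over 46949 features and an adjusted p below 0.01 as the threshold, and 16253 of these features were annotated genes. In bulk RNA of whole organoids, fewer cells of a type and less RNA per cell cannot be told apart. The retinal label could be checked against marker genes: all 9 photoreceptor markers were detected, and their summed level ran from 1026 to 1990 normalized CPM at D20 and from 6388 to 13180 at D30. The 8 markers of a list of cortex-type neurons were detected too, with sums between 8.70 and 428.1, although several of them, such as Neurod6, Neurod2 and Tbr1, are also made by some retinal cells.

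Of the 10 genes, 9 rose between D20 and D30 and none fell. The exception was Syn3. The group did not move as 1: Syp, Sv2b, Syt1, Snap25, Vamp2 and Stx3 were abundant for their length and had risen by D22, and their coefficients of variation between MROs of D25 or D30 lay between 5.54% and 21.2%. Syn1, Syn2, Syn3 and Stx1a were low, passed no test between D20 and D22, and had coefficients of variation between 26.3% and 67.9% at D25 and D30. At D22 the order was not so: Syp varied by 31.6%, Stx3 by 26.4% and Syt1 by 23%, against 8.49% for Stx1a and 21.4% for Syn1. This division was made after the values were seen and is used as a description.

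**Figure D1:**
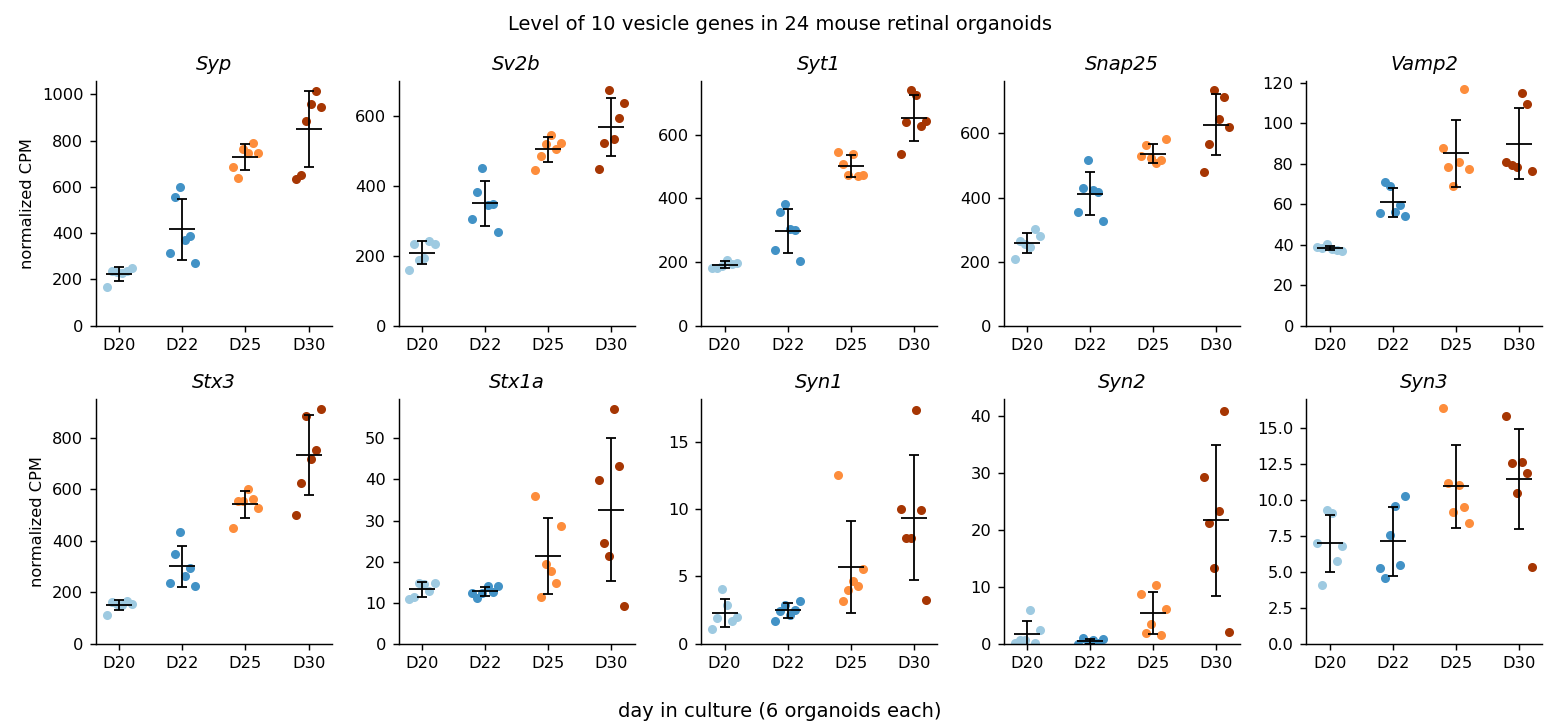
Normalized CPM of the 10 genes (y axis, a scale of its own for each gene) in every MRO at D20, D22, D25 and D30 (x axis). Points are MROs, and bars are the mean and SD of 6. Syp climbs from a mean of 224.6 to 848.6, whereas Syn2 at D30 spreads from 2.11 to 40.86.

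Syp, the vesicle membrane protein used to mark nerve terminals in the retina, had the highest level per exon length of the 10 genes at each timepoint. At D20 its level had a lowest value of 165.9, a median of 233.1 and a highest value of 250.5 normalized CPM. At D22 these were 273.0, 380 and 598.5, at D25 637.1, 745.6 and 788.3, and at D30 635.5, 915 and 1015. The ranges of D20, D22 and D25 did not overlap, and that of D30 overlapped with D25. Syp rose by a log2 fold change of 0.89 (SE 0.15, adjusted p = 3.521e-04) from D20 to D22 and by 0.80 (SE 0.15, adjusted p = 5.082e-04) from D22 to D25. From D25 to D30 the change was 0.22 (adjusted p = 0.484).

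Sv2b encodes a transporter-like protein of the vesicle membrane. Its lowest, median and highest levels were 159.6, 214.2 and 241.5 normalized CPM at D20 and 267.2, 347.5 and 452.8 at D22. At D25 they were 444.9, 513.6 and 546, and at D30 448.9, 565.6 and 674.7. The D20 and D22 ranges were apart, and each later day overlapped with the one before. Sv2b rose by 0.75 (SE 0.11, adjusted p = 1.301e-04) in the first step and by 0.53 (SE 0.11, adjusted p = 0.00230) in the second, and the last step gave 0.17 (adjusted p = 0.467). The call of the second step was lost with annotated genes only (0.44, adjusted p = 0.0133).

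Syt1 encodes the calcium sensor that triggers fast release. Its lowest, median and highest levels were 179.8, 190.6 and 207.7 normalized CPM at D20 and 203.6, 302.9 and 383.9 at D22. At D25 they were 469.6, 491.3 and 546.5, and at D30 539, 641.1 and 740.8. The lowest MRO of D22 lay just below the highest of D20, the D22 and D25 ranges did not overlap, and D30 overlapped with D25 in part. Syt1 rose by 0.64 (SE 0.11, adjusted p = 4.591e-04) to D22 and by 0.75 (SE 0.11, adjusted p = 3.489e-05) to D25. The last step, 0.38 (SE 0.11, adjusted p = 0.0271), missed the threshold with edgeR and passed it with DESeq2 (adjusted p = 0.00863).

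Snap25 encodes the SNARE that contributes a pair of helices from the cell membrane. Its lowest, median and highest levels were 207.5, 259.1 and 300.3 normalized CPM at D20, 326.7, 420.9 and 517.7 at D22, 507, 525.9 and 582.6 at D25, and 478.4, 632.2 and 737.2 at D30. The D20 MROs lay below all later ones, and the later days overlapped. Snap25 rose by 0.67 (SE 0.10, adjusted p = 1.528e-04) to D22. The second step, 0.38 (SE 0.10, adjusted p = 0.014), missed the threshold, and passed it with DESeq2 (adjusted p = 0.00667).

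Vamp2, the vesicle's own SNARE, varied least of the 10 genes between MROs of D20, where the 6 MROs lay between 37.07 and 40.17 normalized CPM with a median of 38.21. The lowest, median and highest levels were then 54.22, 57.81 and 71.04 at D22, 69.15, 79.69 and 116.9 at D25, and 76.27, 79.98 and 115.1 at D30. All MROs of D22 lay above all of D20, and D25 and D30 covered nearly the same range. Vamp2 rose by 0.67 (SE 0.12, adjusted p = 8.062e-04) to D22 and by 0.48 (SE 0.12, adjusted p = 0.00711) to D25. The latter call was lost when any 1 of 7 MROs was left out (replicates 1, 4, 5 and 6 of D22, and 1, 4 and 5 of D25).

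The 2 syntaxins of the cell membrane differed in when and how evenly they changed. Stx3, the syntaxin of ribbon synapses, had lowest, median and highest levels of 113.8, 154.3 and 165.1 normalized CPM at D20, 225.5, 280.2 and 434.7 at D22, 448.7, 555.5 and 602.9 at D25, and 501.5, 736.1 and 910.1 at D30. Its first 3 timepoints did not overlap. Stx3 rose by 1.00 (SE 0.14, adjusted p = 5.044e-05) to D22 and by 0.85 (SE 0.14, adjusted p = 1.349e-04) to D25, and its change from D20 to D30, 2.28 (SE 0.14, adjusted p = 1.339e-13), was the largest among the 6 abundant genes. Stx1a, the syntaxin of conventional synapses, had lowest, median and highest levels of 10.84, 13.70 and 14.92 at D20, 11.24, 12.49 and 14.09 at D22, 11.5, 18.54 and 35.9 at D25, and 9.09, 32.28 and 57.11 at D30. Its D30 range enclosed that of D20. The change of Stx1a was -0.05 (SE 0.28, adjusted p = 0.954) from D20 to D22, 0.74 (SE 0.28, adjusted p = 0.0800) to D25 and 0.61 (SE 0.27, adjusted p = 0.218) to D30, and only over the whole span, at 1.299 (SE 0.28, adjusted p = 3.676e-04), did it pass the test among these 4 comparisons.

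The synapsins had the lowest mean levels of the 10 genes per exon length. Syn1 gathered 1900 reads over the 24 MROs, with lowest, median and highest levels of 1.12, 1.97 and 4.06 normalized CPM at D20, 1.72, 2.48 and 3.19 at D22, 3.21, 4.46 and 12.51 at D25, and 3.27, 8.90 and 17.34 at D30. The D25 values lay just above those of D22, by the width of 3.21 against 3.19 at the nearest. Syn1 rose by 2.03 (SE 0.35, adjusted p = 2.048e-05) from D20 to D30, and the step from D22 to D25, 1.20 (SE 0.34, adjusted p = 0.0191), missed the threshold, though not with DESeq2 (adjusted p = 0.00508).

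Syn2 gave the widest spread and the largest change. Its 6 MROs of D20 ranged from 0.0699 to 5.94 normalized CPM with a median of 0.646, and those of D22 from 0 to 1.05 with a median of 0.380. At D25 they ranged from 1.61 to 10.29 with a median of 4.82, and at D30 from 2.11 to 40.86 with a median of 22.21. The read counts behind the D22 values were 1, 15, 0, 9, 2 and 13, so 3 of the 6 lay under 3 reads, and the fitted changes against D22 depend on few reads. All D25 values lay above all D22 values. Syn2 rose by 3.55 (SE 0.79, adjusted p = 0.00299) from D22 to D25 and by 3.70 (SE 0.70, adjusted p = 8.452e-05) from D20 to D30, and its change to D22, -1.86 (SE 0.82, adjusted p = 0.218), did not pass. The D22 to D25 call was lost without replicate 1 of D22 (3.31, adjusted p = 0.0111) or replicate 5 of D22 (3.38, adjusted p = 0.01003).

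Syn3 passed none of the 6 pairwise tests. Its lowest, median and highest levels were 4.10, 6.89 and 9.29 normalized CPM at D20, 4.61, 6.52 and 10.31 at D22, 8.42, 10.26 and 16.39 at D25, and 5.38, 12.21 and 15.87 at D30. The 6 MROs of D30 included 1, replicate 6, at the level of D20, and the other 5 lay above all of D20. The change from D20 to D30 was 0.71 (SE 0.24, adjusted p = 0.0200). It passed with DESeq2 (0.78, adjusted p = 0.00543), and without replicate 6 of D30 (0.86, adjusted p = 0.00318). Timp3, the gene within Syn3, had means of 31.64, 25.05, 54.39 and 105.0 normalized CPM at the 4 timepoints, so both genes were higher at the later days, and the part of Timp3 in the Syn3 values was not tested.

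**Figure D2:**
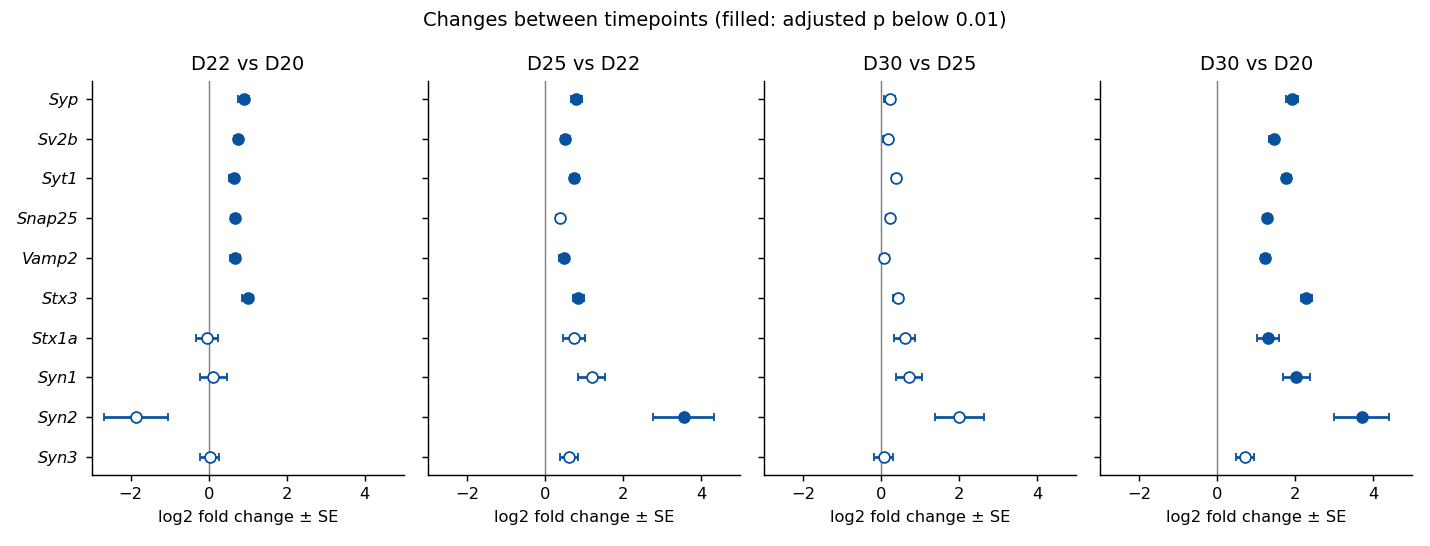
Log2 fold change (x axis, bars are SE) of the 10 genes (y axis) in the 3 steps between neighbouring timepoints and from D20 to D30, from 1 edgeR fit of 24 MROs. Filled points passed an adjusted p of 0.01. The first step holds 6 filled points, the third none, and the whole span 9.

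Counted over the list, 6 of the 10 genes rose from D20 to D22, against a background of 1.62% of all tested features and 2.56% of annotated genes. From D22 to D25, 6 of 10 rose as well, against 3.08% and 7.33%. These were Syp, Sv2b, Syt1, Vamp2 and Stx3 in both steps, with Snap25 in the first and Syn2 in the second, and with annotated genes only Sv2b dropped out of the second. From D25 to D30 no gene passed in edgeR, where the background was 1.76% and 4.55%. In that step 6 of the 10 changes had an unadjusted p under 0.05, and DESeq2 called 1, that of Syt1. The nearest to the threshold in edgeR after Syt1 were Syn2 at 2.00 (SE 0.63, adjusted p = 0.0504) and Stx3 at 0.43 (SE 0.14, adjusted p = 0.0511). Between D20 and D30, 9 of 10 rose, against 13.9% and 25.1%, and the joint test over the 4 timepoints called 9, against 27.2% and 43.9%. The comparison of D25 with D20 called 7, against 8.5% and 14.8%, and that of D30 with D22 called 9, against 11% and 24%. With no overlap between MROs, 5 of the 10 genes lay higher at D22 than at D20 (background 1.48% and 2.36%) and 5 higher at D25 than at D22 (3.17% and 7.11%). The 6 abundant genes all lay higher at D30 than at D20 with no overlap between MROs, which 9.6% of all features and 17% of annotated genes did. The median log2 fold change of the 10 genes was 0.65, 0.75 and 0.30 in the 3 steps and 1.61 over the span, and the median of annotated genes over the span was 0.10. The 10 genes were chosen with earlier results of these data known. The backgrounds also hold features with mean normalized counts down to 10, fewer than those of the 6 abundant genes. The counts beside them are therefore a description.

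That a step passes and the next does not shows no slowing by itself, so the whole changes of the steps were compared with each other. The steps lasted 2, 3 and 5 days, and the changes were not divided by the days. Whether the rate per day differed was therefore not tested. The change from D22 to D25 minus that from D25 to D30 was positive for all 10 genes, between 0.13 and 0.58 for those other than Syn2, and passed the edgeR test for none, against 0.0447% of features. The unadjusted p was under 0.05 for 1 gene, Syp (0.58, SE 0.25, adjusted p = 0.605). The change from D22 to D25 minus that from D20 to D22 also passed for none, against 0.0277%, with an unadjusted p under 0.05 for Syn2 alone (5.41, SE 1.48, adjusted p = 0.103).

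Compared per length of exon, the genes kept a wide spread of levels. At D20 the order of mean normalized CPM per kilobase was Syp at 43.1, Snap25 at 38.0, Stx3 at 26.3, Sv2b at 24.9, Syt1 at 22.9, Vamp2 at 10.1, Stx1a at 4.96, Syn1 at 0.693, Syn3 at 0.570 and Syn2 at 0.234. Of the neighbours in that order, Syp and Snap25 overlapped, as did Stx3 with Sv2b and Sv2b with Syt1, and the 3 synapsins. At D30 the order was Syp at 162.8, Stx3 at 128.3, Snap25 at 92.3, Syt1 at 78.2, Sv2b at 68.0, Vamp2 at 23.6, Stx1a at 12.2, Syn2 at 3.08, Syn1 at 2.84 and Syn3 at 0.934. All neighbours overlapped at D30 except Sv2b and Vamp2. Stx3 moved from the third place to the second and Syn2 from the last to the eighth. Per length, the median share of Syn2 in the summed synapsins was 6.60%, 3.74%, 19.87% and 42.0% at the 4 timepoints in turn, while that of Syn3 was 36.44%, 42.33%, 27.04% and 15.59%.

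**Figure D3:**
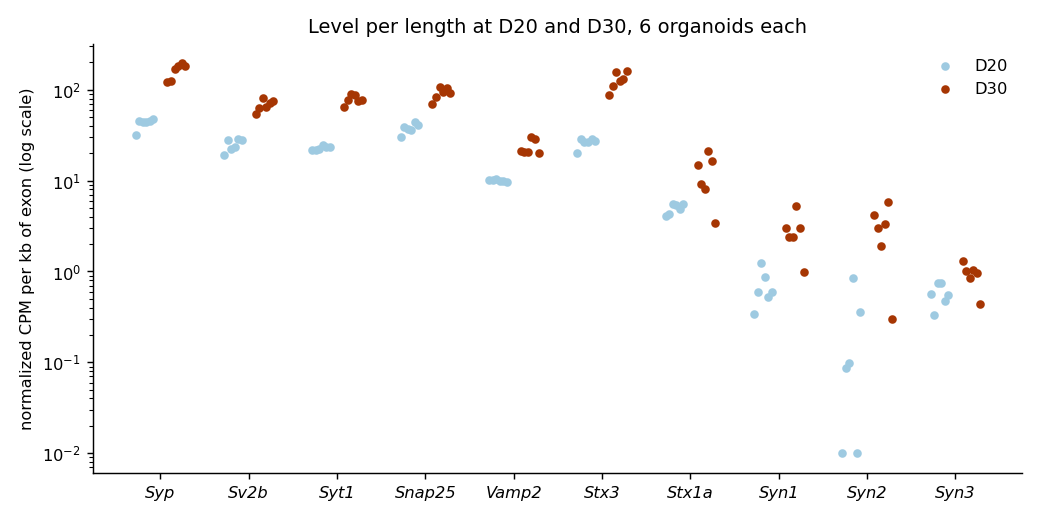
Normalized CPM per kilobase of exon (y axis, log scale, on which values of 0 cannot be drawn and none occurs) of the 10 genes (x axis) in 6 MROs at D20 and 6 at D30. Syp, Snap25, Stx3, Sv2b and Syt1 lie above the other genes at both days. The synapsins have the lowest means, and at D30 Syn1 and Syn2 overlap with Stx1a.

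Ratios of reads within an MRO do not depend on normalization. They were compared with exact two-sided permutation tests of 6 against 6 MROs on the log2 scale, with 0.5 added to each count, and adjusted over 16 tests with a threshold of 0.05, where the smallest exact p is 0.00216. For each read of Stx1a there were between 10.4 and 14.2 reads of Stx3 at D20 (median 10.5), between 16.1 and 35.1 at D22 (21.2), between 12.5 and 48.2 at D25 (31.3) and between 12.6 and 99.8 at D30 (21.4). The log2 ratio rose by 1.01 from D20 to D22 (exact p = 0.00216, adjusted p = 0.0173), and no MRO of D22 overlapped with D20. From D20 to D30 the difference was 1.18 (exact p = 0.0130, adjusted p = 0.0520), which missed the threshold, and the highest D30 ratio belonged to replicate 6.

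The ratio of Syp to Syn1 did not pass at any step. Each read of Syn1 was matched by a median of 121.9 reads of Syp at D20, 175.8 on D22, 171.2 on D25 and 92.4 on D30, and the log2 difference from D20 to D30 was -0.07 (exact p = 0.866, adjusted p = 0.877). The median ratio of Syn2 to Syn1 reads, which does not allow for the longer exons of Syn2, was 0.249, 0.174, 0.784 and 2.196 from the earliest timepoint to the latest. The log2 ratio rose by 2.95 from D22 to D25 (exact p = 0.00433, adjusted p = 0.0231), and the difference over the span, 2.64, missed the threshold (exact p = 0.0216, adjusted p = 0.0693). The excess of Syn3 reads over Syn1 reads narrowed, from a median ratio of 3.22 at D20 to 1.46 at D30. That log2 ratio fell by 1.28 over the span (exact p = 0.00216, adjusted p = 0.0173).

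**Figure D4:**
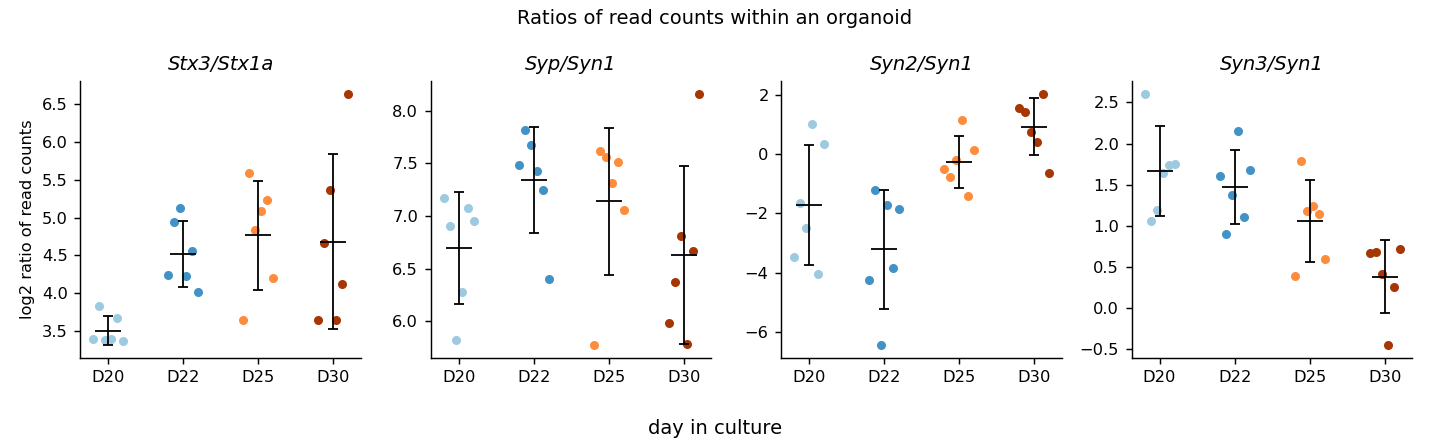
Log2 ratio of read counts (y axis) for 4 pairs of genes in every MRO by day (x axis). Points are MROs, and bars are the mean and SD of 6. The ratio of Stx3 to Stx1a at D22 lies above all D20 values, and the ratio of Syn3 to Syn1 is lowest at D30.

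How each gene moved with marker genes among MROs of the same day was measured in models that added the log2 sum of 1 of 9 marker lists to the timepoints, and that were chosen after the values were seen. No test compared the slopes of different genes. Against the cortex-type list, Stx1a had a slope of 0.31 on the log2 scale per doubling of the marker sum (SE 0.04, adjusted p = 3.189e-05), Syn1 of 0.31 (SE 0.06, adjusted p = 0.00370) and Syn2 of 0.68 (SE 0.13, adjusted p = 0.00148). These 3 of the 10 genes passed, as did 1.61% of all features. Syn3 had a slope of 0.15 (SE 0.05, adjusted p = 0.167), and those of the 6 abundant genes lay between -0.07 and 0.03. Neurod6, the most abundant gene of the list at D30, which is also made by amacrine cells, gave between 0.813% and 60.3% of the sum of an MRO. With Neurod6 left out of the sum, the same 3 genes passed, with slopes of 0.40 for Stx1a, 0.39 for Syn1 and 0.85 for Syn2, and 1.94% of features did. Against the photoreceptor list, 5 of the 10 genes passed with a positive slope, against 0.537% of features. These were Syp at 0.74 (SE 0.10, adjusted p = 2.419e-05), Stx3 at 0.70 (SE 0.09, adjusted p = 7.588e-06), Sv2b at 0.53 (SE 0.08, adjusted p = 2.306e-04), Snap25 at 0.44 (SE 0.08, adjusted p = 0.00310) and Syt1 at 0.44 (SE 0.09, adjusted p = 0.00575). Vamp2 passed on neither list, with slopes of 0.15 (adjusted p = 0.736) on photoreceptor and 0.03 (adjusted p = 0.817) on cortex-type markers. The photoreceptor slopes of the other 4 genes were 0.59 for Syn2 (SE 0.87), -0.03 for Syn1 (SE 0.40), -0.28 for Stx1a (SE 0.32) and -0.46 for Syn3 (SE 0.25), and none of the 4 passed.

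None of the 10 genes passed in edgeR on the other 7 lists. The share of all features that passed with a positive slope was 0.637% on the Mueller glia and 0.841% on the oligodendrocyte list. It was 0.0341% on the amacrine and horizontal, 0.017% on the pigment epithelium, 0.00213% on the ganglion, and 0% on the progenitor and bipolar lists. An unadjusted p under 0.05 is a looser mark that takes either sign, so these shares are no background for it. How many of all features met that mark was not counted. On the Mueller glia list 3 genes met it: Syn2 at 2.74 (SE 0.76, adjusted p = 0.0551), Stx1a at 1.07 (SE 0.32, adjusted p = 0.0854) and Syn3 at 0.78 (SE 0.26, adjusted p = 0.152). On the oligodendrocyte list 7 did, with slopes of both signs. Stx1a at 0.76 (SE 0.22, adjusted p = 0.0577), Syn1 at 0.63 and Syn3 at 0.50 were positive. Stx3 at -0.36 (SE 0.09, adjusted p = 0.0260), Syp at -0.25, Sv2b at -0.22 and Snap25 at -0.17 were negative. On the pigment epithelium list 2 did, Syn1 at -0.20 and Stx1a at -0.17. The amacrine and horizontal, ganglion and progenitor lists had 1 each: Syt1 at 0.21, Stx1a at -0.46 and Syt1 at -0.54 in turn. On the bipolar list 0 did. The lists were fitted 1 at a time, and their parts were not separated. Pcp2 was the most abundant bipolar marker at D20, and Ttr the most abundant pigment epithelium marker at each timepoint. Sums without these genes were not fitted.

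The cortex-type sum per MRO was 283.2, 221.7, 52.3, 270, 314.9 and 8.70 normalized CPM at D30 in replicates 1 to 6. Replicate 6, the lowest, was also the lowest MRO of D30 for Syn1 (3.27), Syn2 (2.11), Syn3 (5.38) and Stx1a (9.09), while its Stx3 level, 910.1, was the highest. The same MRO had the lowest Mueller glia sum (1152) and oligodendrocyte sum (18.07) of D30 too, so its low levels cannot be tied to 1 list. At D25 the highest sum, 428.1, belonged to replicate 1, which had the highest Syn1 (12.51), Syn3 (16.39) and Stx1a (35.9) of that day. That MRO had the highest oligodendrocyte sum of D25 (48.81) too, so its levels cannot be tied to 1 list either. Syn2 was highest in replicate 4 of D25 (10.29, against 8.80 in replicate 1). The sums ran from 14.72 to 238.3 at D20 and from 12.02 to 26.69 at D22. Replicate 6 of D20, with the sum of 238.3, had the highest Stx1a of that day (14.92). The highest Syn1 (4.06) and Syn3 (9.29) of D20 were in replicate 3, and the highest Syn2 (5.94) in replicate 4. Of the 8 cortex-type genes, 3 were higher in D25 than in D22 MROs, 6 were higher in D30 than in D22 MROs, and 1 in D30 than in D20 MROs. With the sum as a term in the model, Syn2 no longer passed from D22 to D25 (1.88, adjusted p = 0.0744), nor did Vamp2 (0.42, adjusted p = 0.0466), and from D22 to D30 the calls of Syn1 (1.02, adjusted p = 0.0133), Stx1a (0.40, adjusted p = 0.182) and Vamp2 (0.49, adjusted p = 0.01005) were lost. From D20 to D30 the same model called 9 of the 10.

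**Figure D5:**
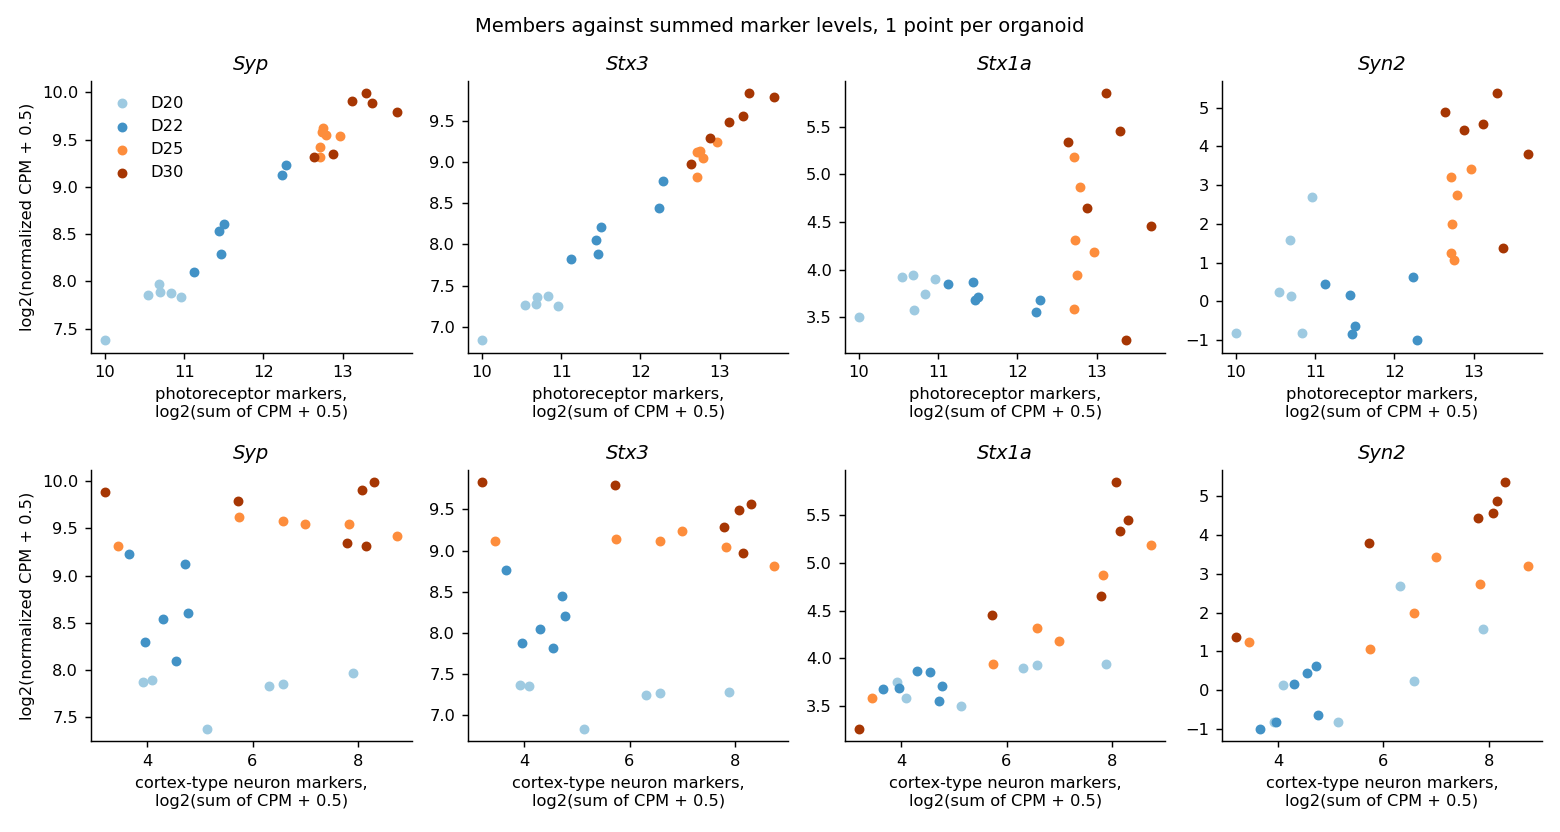
Log2 of normalized CPM plus 0.5 of Syp, Stx3, Stx1a and Syn2 (y axes) against the log2 summed level of 9 photoreceptor markers (top row, x axis) and 8 cortex-type markers (bottom row, x axis), 1 point per MRO and 1 colour per day. Within a day, the fitted slopes of Stx1a and Syn2 on the cortex-type sum are 0.31 and 0.68, and those of Syp and Stx3 on the photoreceptor sum are 0.74 and 0.70.

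Summed markers of other cells moved over the same days. The 8 bipolar markers had a median sum of 125.5 normalized CPM at D20 and 344.4 at D30. Over the span 7 of them rose and 1, Pcp2, fell. Pcp2 was the most abundant of the 8 at D20, with a mean of 96.39 normalized CPM, against 35.6 at D30. The bipolar sum of D20 was therefore mostly a level of Pcp2. The 8 amacrine and horizontal markers summed to a median of 158.2 at D20 and 229.9 at D30, with 2 of the 7 tested higher and 1 lower. All 5 ganglion cell markers fell, from a median sum of 100.4 to 8.80, and 5 of 6 progenitor markers fell, from 524 to 195.4. Of the 6 Mueller glia markers 5 rose, from 479.7 to 2362. The pigment epithelium list went from a median sum of 17.28 to 411, with 2 of 5 tested genes higher. Most of that sum at D30 was Ttr, with a mean of 8.41 ± 8.37 normalized CPM at D20 and 986.8 ± 1217 at D30 (SD, n = 6). The next highest mean of that list at D30 was 17.6, for Mitf. The oligodendrocyte list went from a median sum of 63.78 to 48.48, with 3 of 5 tested genes higher and 1 lower. The part of each cell type in the changes of the 10 genes was not tested, beyond the slopes given above.

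Beside the 10 genes, 79 further genes of vesicle release were set in 5 lists by role, and 78 of them were matched and tested. From D20 to D30, 44 rose and 5 fell, with a median log2 fold change of 0.91, and the backgrounds of annotated genes were 25.1% higher and 16.7% lower. Over the steps, 11 rose from D20 to D22 (2.56% of annotated genes did), 25 rose and 1 fell from D22 to D25 (7.33% rose), and 12 rose and 1 fell from D25 to D30 (4.55% rose). No test compared the lists with each other.

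Among 16 other proteins of the vesicle membrane, 13 rose, none fell, and the median was 1.44. Synpr, which encodes synaptoporin, the closest relative of synaptophysin, rose by 4.53 (SE 0.49, adjusted p = 1.135e-08) from a mean of 3.13 ± 3.20 to 72.83 ± 40.95 normalized CPM (SD, n = 6). Scamp5 rose by 2.18 and Syngr1, encoding synaptogyrin 1, by 1.74. Of 15 other calcium sensors and related proteins, 7 rose, none fell, and the median was 1.15. Syt4 rose by 1.38, Rph3a, a Rab3 effector, by 1.15, and Syt11 by 1.04.

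Of 12 other SNAREs tested, 3 rose and 2 fell, shares close to those of all annotated genes, with a median of 0.13. Snap47 rose by 1.25 and Snap23 by 0.51. Vamp1, the relative of Vamp2, fell by 0.59 on the log2 scale, from 21.97 ± 3.47 to 14.62 ± 2.26 normalized CPM (SD, n = 6), and Stx4a fell by 0.50.

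Of 21 regulators of the SNAREs, 11 rose and 2 fell, with a median of 0.52. Cplx4, a complexin of ribbon synapses, rose by 6.32 (SE 0.37, adjusted p = 3.367e-14) from 3.35 ± 1.98 to 270.7 ± 82.7 normalized CPM (SD, n = 6). Nsf, the ATPase that takes spent SNARE complexes apart, rose by 2.29 and Rims1, a scaffold of the active zone, by 2.00. Cplx2, a complexin of conventional synapses, fell by 0.75 on the log2 scale, and Stxbp2 fell by 1.20. Of 14 proteins of vesicle recycling, 10 rose and 1 fell, with a median of 1.12. Amph rose by 2.38, Sh3gl2, which encodes endophilin A1, by 2.25, and Sncb by 2.11, while Ston2 fell by 0.73.

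The genes whose pattern over the 24 MROs was most like the mean of the 10 were found by Pearson's r among 10821 annotated genes, as a description without a test, since all points share the course of time. They were Tex2 (r = 0.977), Ndrg3 (0.974), Atp6v1b2 (0.974), which encodes a subunit of the proton pump, Slc25a12 (0.971) and Arhgef26 (0.969). For Stx3 the nearest gene was Aipl1 (0.993), which is made in photoreceptors, for Snap25 Rpgrip1 (0.983), for Syp Lbhd1 (0.988) and for Syt1 Snrk (0.991). For Stx1a it was Gnao1 (0.954), a G protein subunit of neurons, for Syn1 Stmn3 (0.947) and for Syn2 Reep5 (0.961).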

How the data were processed

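RNA of 24 individual MROs was sequenced, depleted of ribosomal RNA, as strand-specific single-end libraries. Per the labels and the study's methods, the authors demultiplexed the reads (bcl2fastq 2.20), trimmed them (cutadapt 1.5), aligned them to GRCm38 with HISAT2, assembled new transcripts (StringTie 1.3.3) and counted reads with HTSeq 0.6.1. The values the authors deposited are raw read counts per feature, without normalization, for 46603 annotated genes and 79999 assembled loci. Whether counting used the strand is not given in the sources used here. The 5 HTSeq summary lines were left out. Ensembl identifiers were matched to symbols for 46005 genes, and exon lengths came from GENCODE vM21, which may differ from the annotation the authors used.

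The main test was edgeR 4.0.16 (quasi-likelihood, TMM, R 4.3.3), with 1 fit of all 24 MROs over the 46949 features whose mean normalized count reached 10, and an adjusted p below 0.01. Common biological variation was 0.385. DESeq2 1.42.0, other scalings and filters, a replicate block and leaving out each MRO were alternatives. Ratios were tested with exact permutation tests (scipy 1.17.1). Scripts were tested on simulated data. No 2 replicates were close enough to be 1 library deposited again (lowest chi-square over its degrees of freedom 6.09). The 10 genes, the lists and the tests were chosen with earlier results of these data known, and the cortex-type covariate, the slopes on 9 marker lists and the sum without Neurod6 after seeing the data. Of each list of release genes, the text names up to 3 largest rises and 2 largest falls from D20 to D30 among genes past the threshold whose mean normalized count reached 100, and for likeness the 5 nearest genes to the mean and the nearest to each member. Some genes that this rule names are not reported here. Depth limits Syn2 most, with 0 to 15 reads per MRO at D22, where a count of 0 allows up to 3 reads.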

Additional observations from a re-analysis of the deposited data

Results flagged for a closer look

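In 40 groups of 6 MROs (10 genes at 4 timepoints), 4 held an MRO whose gap to the nearest other exceeded 0.625 of the group's range, Dixon's limit for 6 values, which chance passes in about 1 in 20 groups. At D25, replicate 1 was the highest MRO for Syn1, at 12.51 normalized CPM against 5.55 for the next, and for Syn3, at 16.39 against 11.16. The same MRO had the highest cortex-type marker sum of all 24, at 428.1. Within D25 it also had the highest oligodendrocyte sum (48.81) and the lowest ganglion (13.55), bipolar (148.7) and pigment epithelium (39.78) sums. At D20, replicate 1 was the lowest MRO for Syp, at 165.9 normalized CPM against 227.9 for the next, and for Stx3, at 113.8 against 151.7. It also had the lowest photoreceptor marker sum of D20, at 1026. Its amacrine and horizontal (122.9) and ganglion (57.62) sums were the lowest of D20 too. Its progenitor (651.5) and pigment epithelium (59.78) sums were the highest. Neither MRO's levels can therefore be tied to 1 list.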

How the results depend on the processing

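The count of members called from D20 to D22 was 6 under every alternative run, that from D20 to D30 was 9 or 10, and the counts of the 5 lists of release genes from D20 to D30 stayed within 1.5 times their values. From D25 to D30 it was 0, and 1 (Syt1) with DESeq2 and with the compared timepoints only, and between 0 and 1 when each MRO was left out. From D22 to D25 it was 6, between 4 and 7 with MROs left out, 8 with DESeq2 and 4 with the cortex-type sum as a covariate, an alternative chosen after seeing the data. That covariate turned Stx1a to 0.35 from D20 to D22 and to -0.0425 from D22 to D25, and Syn3 to -0.0315 from D25 to D30. With annotated genes only, the latter was -0.0015, and Sv2b from D22 to D25 no longer passed (0.44).

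Leaving out 1 MRO moved uncalled changes across 0: Syn1 and Syn3 from D20 to D22 ranged from -0.0349 to 0.36 and from -0.11 to 0.12, and Syn3 and Vamp2 from D25 to D30 from -0.0491 to 0.22 and from -0.0048 to 0.19. The values of Syn3 that turned were -0.089, -0.0345, -0.0875 and -0.1088. The call of Syn1 from D20 to D25 was lost without replicate 1, 2, 5 or 6 of D20 or replicate 1 of D25 (0.92, adjusted p = 0.0344), and Syn2 passed in that comparison without replicate 4 of D20 (2.74, adjusted p = 0.00457). Snap25 from D22 to D25 passed under DESeq2's size factors, both other filters on low counts, the compared timepoints only, or without replicate 3 of D22 or 1 of D30. Syn1 from D22 to D25 passed without replicate 6 of D30 (1.20, adjusted p = 0.00914). Syn3 from D22 to D30 passed with DESeq2 (0.76, adjusted p = 0.00780) and without that MRO (0.83, adjusted p = 0.00493).

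With 5 counts added, the ratio of Stx3 to Stx1a over the span passed (1.19, exact permutation adjusted p = 0.0346) and that of Syp to Syn1 turned to 0.084. Leaving out 1 MRO gave 0.79 to 1.38 for Stx3 to Stx1a, 2.18 to 3.19 for Syn2 to Syn1, which passed without replicate 4 of D20, -1.41 to -1.10 for Syn3 to Syn1, and -0.38 to 0.10 for Syp to Syn1, which was positive in 4 (0.02, 0.0059, 0.06 and 0.10). The replicate numbers showed no clear pairing of the MROs. Of 36 pairs with the same number, 1 correlated above 0.1 (range -0.0907 to 0.257). The own number was best in 17 of 72, which was not tested against the number that unpaired MROs would give. With the replicate block, Snap25 from D22 to D25 passed (0.39, adjusted p = 0.00663) and no other call of a member changed. A sign-flip test with the replicate block left Syn3 to Syn1 at -1.28 (exact p = 0.0312, the smallest it can give, adjusted p = 0.125). Leaving Neurod6 out of the cortex-type sum, chosen after seeing the data, changed no call of the 10 slopes. The causes of these changes were not tested.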
